A study of Mus musculus with 18 samples.

Results

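Fgf5, Pou3f1, Otx2, Foxd3, Sall2, Nodal, Lefty1 and Lefty2 are genes associated with the primed state of the epiblast, and they were followed here through neural differentiation of mouse cells with and without intact Hmgn1. They were found by symbol in the probe annotation of the arrays, where 11 probe sets carried 1 of these 8 symbols and no other. Each probe set pools several short probes against the same transcript. The arrays held probe sets for 18193 genes, of which 14432 passed a filter on dim signal and were tested, and these included all 8 members with 10 of their 11 probe sets. The rule that finds them uses gene symbols alone.

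Mouse pluripotent cells move from a naive state, like that of the preimplantation epiblast, through a formative state to a primed state, like that of the postimplantation epiblast before gastrulation. Fgf5, a secreted fibroblast growth factor, is a standard marker of that exit, and the homeodomain factor Otx2 and the POU factor Pou3f1 (also called Oct6) help to set the primed enhancer programme and later act in the neural lineage. Nodal, a ligand of the TGF-beta family, signals through activin receptors with the co-receptor Cripto (Tdgf1), SMAD2/3 and Foxh1, and it induces its own inhibitors Lefty1 and Lefty2, which makes a feedback loop. Foxd3 is a forkhead repressor of pluripotent and neural crest cells, and Sall2 is a zinc finger factor of the spalt family that is prominent in the developing nervous system.

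The 18 arrays came from strain C57/B6 and stood for 6 groups of 3, made up of 3 cell types and 2 Hmgn1 genotypes. The cell types are embryonic stem (ES) cells, the neural progenitors made from them, and neurons; the genotypes are wild type (+/+) and homozygous loss of Hmgn1 (-/-). Hmgn1 encodes a nucleosome-binding protein. The ES cells grew with LIF and serum replacement, on growth-arrested embryonic fibroblasts or free of feeders, and a commercial kit for dopaminergic neurons was used to make the neural cells from them. Labelled cRNA for an array started from 6 ug of total RNA. Replicates are called biological in the labels, which leave unsaid whether these were separate cultures, so a p-value measures only the spread between these arrays, possibly a technical one. They do not say how many ES cell lines stood for a genotype, so that Hmgn1 status and any other difference between lines cannot be told apart. All groups are cell populations, in which fewer expressing cells and less RNA per cell cannot be told apart.

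Values are intensities on a linear scale. The 40th percentile of each array, between 36.6 and 38.7, served as a lower bound for signal, and a gene under it is described as below the bound. Array medians lay between 55.7 and 60.5, and arrays of a group correlated across genes at r 0.995 to 0.998. Replicate 3 of the +/+ ES cells stood apart from its mates: 30 genes lay over 2-fold above the mean of the other 2, against 0 to 3 genes on every other array. Over 2-fold below that mean lay 2 genes on this array and 0 to 10 on the others. The markers of the cell types followed the labels. Pou5f1 (Oct4) read 5452 to 5953 in ES cells of both genotypes and at most 17.7 in neurons, while Map2, a neuronal cytoskeleton protein, read 22.1 to 39.4 in ES cells and 5825 to 6608 in neurons. The brightest Hmgn1 probe set was lower in -/- cells of every type without being absent, at 8770 to 9079 against 11022 to 11332 in ES cells. The labels do not say whether these probes lie in the inactivated stretch, so they check the genotype only in part.

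The promoters of members called higher in -/- ES cells show the sequence context of those genes. RefSeq windows of 300 bases on build GRCm38.p6, from 250 before to 50 after a gene start, were given for 5 of the 8 members. Those of Fgf5, Otx2 and Sall2 are printed, since these 3 were higher in -/- ES cells and had an entry. Pou3f1 and Lefty2, also higher there, had none. Otx2 has 4 listed starts and Sall2 has 2, and for each the window with the most CpG dinucleotides is shown. The arrays do not tell which start was used. Capitals mark matches on either strand to TAATCC (the site bound by OTX homeodomains), GGGCGG (the GC box) or TATAAA (the TATA box). These 3 motifs do not overlap each other, and they occur in 7.06%, 35.7% and 13.6% of the 32851 windows in the table.
Fgf5, chr5:98253934-98254233, plus strand: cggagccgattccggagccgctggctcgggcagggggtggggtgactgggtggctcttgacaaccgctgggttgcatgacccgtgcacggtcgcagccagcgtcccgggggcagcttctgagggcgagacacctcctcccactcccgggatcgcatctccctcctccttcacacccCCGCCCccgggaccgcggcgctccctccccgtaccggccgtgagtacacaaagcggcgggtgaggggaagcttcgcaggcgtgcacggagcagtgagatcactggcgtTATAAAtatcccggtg
Otx2, chr14:48665060-48665359, minus strand: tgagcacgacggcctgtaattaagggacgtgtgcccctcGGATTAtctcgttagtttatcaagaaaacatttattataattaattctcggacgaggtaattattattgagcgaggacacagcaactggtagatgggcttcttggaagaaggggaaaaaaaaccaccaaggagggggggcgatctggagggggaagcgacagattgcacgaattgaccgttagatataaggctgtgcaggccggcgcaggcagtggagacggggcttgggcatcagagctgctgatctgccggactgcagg
Sall2, chr14:52316274-52316573, minus strand: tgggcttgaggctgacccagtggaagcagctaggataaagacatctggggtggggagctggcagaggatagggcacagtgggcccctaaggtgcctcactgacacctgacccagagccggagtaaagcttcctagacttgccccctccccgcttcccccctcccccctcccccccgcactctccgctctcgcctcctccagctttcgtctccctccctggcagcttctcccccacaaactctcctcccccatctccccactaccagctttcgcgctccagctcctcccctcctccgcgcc
The Fgf5 window was the richest in CpG, with 29, more than 87.1% of all windows, against a median of 7. It held a GGGCGG on the opposite strand, printed as CCGCCC, at base 177 and a TATAAA at base 285, counted from 1 at the 5′ end. This TATAAA lies within the 50 bases after the listed start. The Otx2 window held 16 CpG and a TAATCC on the opposite strand, printed as GGATTA, at base 40. The Sall2 window held 10 CpG and none of these letters. An unprinted Otx2 window held a TATAAA at base 59, and the unprinted Sall2 window held one at base 106. A match is a description of the sequence and not evidence of binding.

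In ES cells, 5 of the 8 genes were higher without Hmgn1 and none was lower: Fgf5, Sall2, Pou3f1, Otx2 and Lefty2. Sall2 was 1.62-fold higher, Pou3f1 1.42-fold, Otx2 1.27-fold and Lefty2 1.26-fold, and Fgf5, below the bound in +/+ ES cells, at least 1.19-fold. Foxd3, Nodal and Lefty1 did not pass the test. Of all genes tested in this comparison, 10.5% were higher and 4.32% lower at a limma adjusted p under 0.05. The median change over the 8 genes was 0.34 on the log2 scale against 0.04 over all genes tested.

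Of the transcription factors, Pou3f1 was well above the bound in ES cells. Its +/+ arrays read 1410.1, 1609.5 and 1806.4 and its -/- arrays 2197.9, 2385.6 and 2255.0. The groups did not overlap, and the lowest -/- array lay well above the highest +/+ array. The log2 change was 0.51 (SE 0.11, n = 3 arrays per group, limma adjusted p = 0.00643). A second Pou3f1 probe set read 277.6, 239.0 and 287.3 in +/+ and 398.7, 499.7 and 408.9 in -/- ES cells, a change of 0.70 (SE 0.11, limma adjusted p = 0.00147). Both probe sets thus gave the same direction without overlap. The p-values of second probe sets, here and below, were adjusted over all 34945 probe sets with 1 symbol.

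Otx2 read 458.0, 484.1 and 516.1 in the +/+ and 591.3, 607.9 and 647.8 in the -/- ES cells. All 3 -/- arrays were above all 3 +/+ arrays, by 0.34 on the log2 scale (SE 0.06, limma adjusted p = 0.00113). Sall2 read 101.6, 125.7 and 116.6 against 165.0, 210.5 and 183.8. Again no array of one genotype fell within the range of the other, and the change was 0.70 (SE 0.08, limma adjusted p = 9.31e-05). Foxd3 read 172.5, 127.6 and 132.5 in +/+ and 141.0, 182.5 and 188.2 in -/- cells. The 2 ranges overlapped, and the change of 0.24 (SE 0.16) had a limma adjusted p of 0.344.

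The secreted factors divided by gene. Fgf5 was dim: its +/+ arrays, at 27.5, 31.2 and 24.0, were all below the bound, and its -/- arrays, at 39.1, 51.7 and 47.4, were all above it. The groups did not overlap, and the fitted change was 0.72 (SE 0.11, limma adjusted p = 0.000602). Because the +/+ value is only a bound, the difference is at least 1.19-fold. With values below the bound set to it, an alternative chosen after seeing the data, the change was 0.25 with a limma adjusted p of 0.0483. A second Fgf5 probe set was below the bound on all 18 arrays and gave 0.16 (limma adjusted p = 0.487), which is no measure of level.

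Nodal itself was bright in ES cells and did not pass the test there. It read 1447.1, 1539.8 and 1476.9 in +/+ and 1403.1, 1496.8 and 1512.9 in -/- cells, ranges that overlapped almost entirely. The change was -0.02 (SE 0.14, limma adjusted p = 0.950). Of its inhibitors, Lefty2 read 489.8, 455.6 and 478.7 in +/+ against 583.1, 566.6 and 651.5 in -/- cells, without overlap. That was a change of 0.34 (SE 0.09, limma adjusted p = 0.0204). This call was lost without replicate 2 of the +/+ ES cells (0.31, adjusted p = 0.0543) and without replicate 3 of the -/- ES cells (0.28, adjusted p = 0.0860). Lefty1 read 2008.4, 2200.8 and 2045.7 against 2210.9, 2308.6 and 2548.3, so the groups did not overlap, but the change of 0.17 (SE 0.09) had a limma adjusted p of 0.207. Lefty1 and Lefty2 are neighbouring genes of similar sequence, and binding of a transcript to the other gene's probes was not tested.

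**Figure D1:**
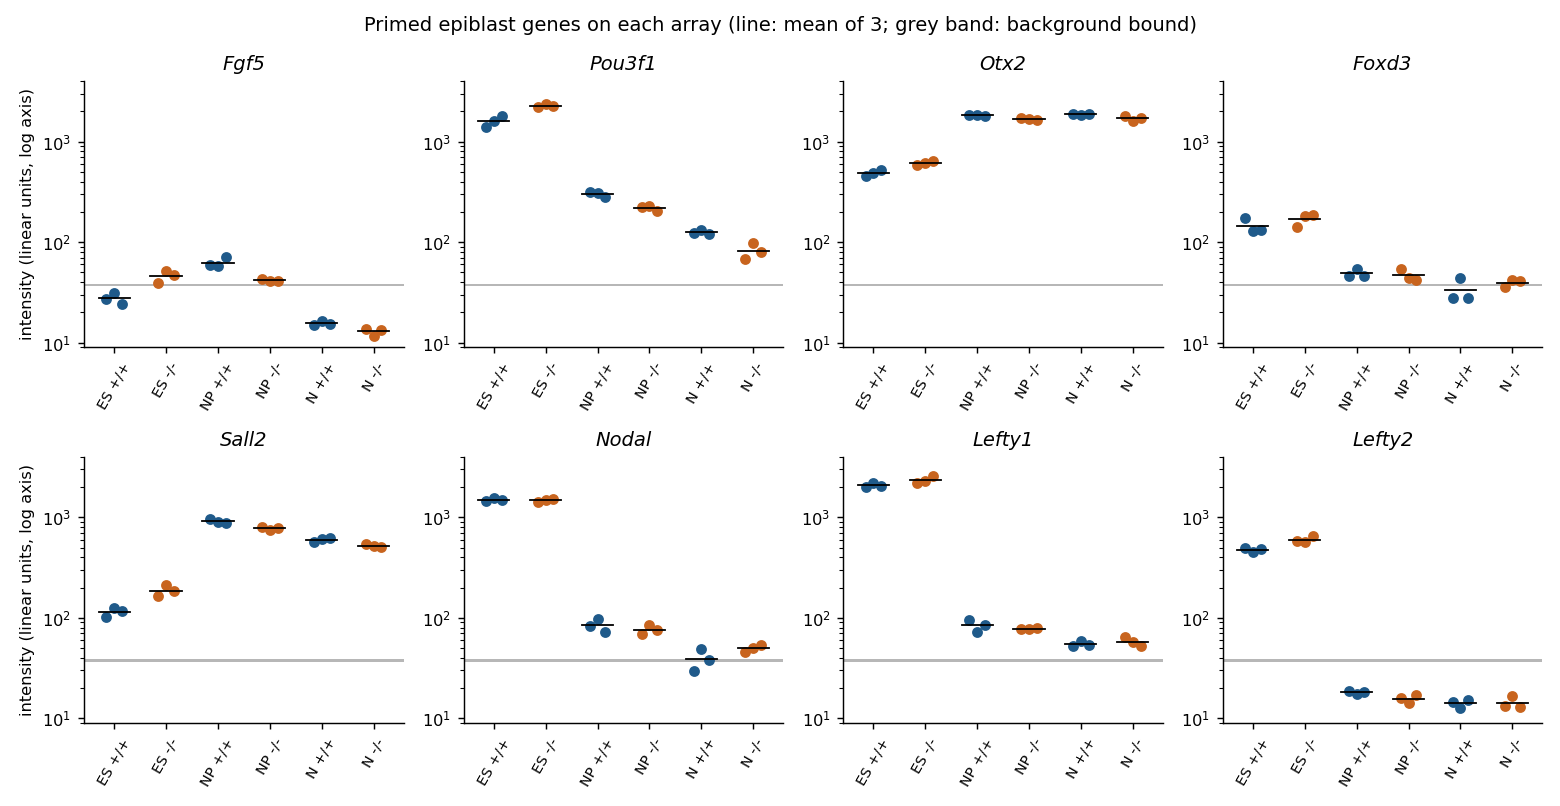
Intensity on a log scale (vertical axis) of each of the 8 genes on every array, by cell type (ES cells, NP for neural progenitors, N for neurons), with +/+ arrays in blue and -/- arrays in orange; the grey band is the range of the background bound, 36.6 to 38.7. In ES cells the -/- points of Fgf5, Pou3f1, Otx2, Sall2, Lefty1 and Lefty2 lie above all +/+ points, while in neural progenitors those of Fgf5, Pou3f1, Otx2, Sall2 and Lefty2 lie below.

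In all, 6 of the 8 genes had every -/- ES array above every +/+ ES array, where 20.1% of tested genes were arranged so and 8.23% the opposite way. Without replicate 3 of the +/+ ES cells, the array that stood apart, the same 5 genes were called higher, with changes from 0.34 (Lefty2, limma adjusted p = 0.0466) to 0.71 (Sall2). Fitting only the 6 ES arrays, instead of all 18 with a shared estimate of spread, left Fgf5 and Sall2 called. Pou3f1, Otx2 and Lefty2 then had limma adjusted p of 0.0550, 0.0686 and 0.0751, and 1.05% of all genes were called higher. Quantile normalization, which moved the numbers of higher and lower genes over the whole array from 1520 and 624 to 914 and 772, kept Fgf5, Pou3f1, Otx2 and Sall2 called, with Lefty2 at 0.26 (adjusted p = 0.0740). Array weights, which gave 765 higher and 361 lower genes over the whole array, kept the same 4, with Lefty2 at 0.32 (adjusted p = 0.0690).

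Otx2 and Sall2 both lie on chromosome 14, which stood apart in these lines. Of 493 tested genes there, 48.9% were lower and 1.01% higher in -/- ES cells, with a median log2 change of -0.22. On the other chromosomes 2.75% were lower and 10.9% higher. Otx2 and Sall2 were thus higher on a chromosome whose genes were mostly lower or not called. The same tilt was present in neural progenitors, where 32.3% of the chromosome 14 genes were lower and 4.06% higher, and in neurons, where 22.1% were lower and 4.67% higher. Its part in the values of Otx2 and Sall2 was not tested. Fgf5 is on chromosome 5, Pou3f1 and Foxd3 on 4, Nodal on 10, and Lefty1 and Lefty2 on 1.

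In neural progenitors 2 of the 8 genes passed. Fgf5 and Pou3f1 were lower without Hmgn1, by 1.49-fold and 1.39-fold, and none of the 8 genes was higher. Of all genes tested here, 9.19% were lower and 7.81% higher. The median change over the 8 genes was -0.18, against 0.00 over all genes. In 5 of the 8 genes (Fgf5, Pou3f1, Otx2, Sall2 and Lefty2) every -/- array was below every +/+ array, which 20.8% of tested genes also showed, while 20.0% had every -/- array above.

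Pou3f1 read 315.1, 311.6 and 282.3 in +/+ progenitors and 221.9, 226.3 and 204.4 in -/- progenitors. The -/- arrays were all lower, by -0.48 on the log2 scale (SE 0.11, limma adjusted p = 0.00570). The second Pou3f1 probe set gave -0.17 (limma adjusted p = 0.434). Its ranges overlapped, at 81.7 to 96.4 in +/+ and 67.8 to 83.9 in -/- progenitors. Both the call and the size of this difference thus depended on the probes. Fgf5, at its brightest in +/+ progenitors, read 59.4, 57.6 and 71.1 there and 43.2, 41.0 and 40.9 in -/- progenitors. All 6 arrays were above the bound, and the change was -0.57 (SE 0.11, limma adjusted p = 0.00118).

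Sall2 read 962.5, 890.5 and 885.5 in +/+ and 798.2, 752.9 and 780.3 in -/- progenitors. Those ranges did not overlap, but the change of -0.23 (SE 0.08) had a limma adjusted p of 0.0707. Otx2, at 1858.9, 1841.0 and 1816.8 against 1712.4, 1685.6 and 1642.4, was also apart on every array at -0.13 (SE 0.06, limma adjusted p = 0.135). With array weights, which give noisier arrays less say, Otx2, Sall2 and Lefty2 passed as well, for 5 genes lower. That setting also called 2028 of all 14432 genes lower there, against 1326 in the main fit. Sall2 passed too when only the progenitor arrays were fitted (limma adjusted p = 0.0151) and with log2(value + 16) (limma adjusted p = 0.0456). Lefty2 was below the bound on all progenitor arrays (14.1 to 18.7), so its order there carries no level.

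Foxd3, Nodal and Lefty1 did not separate the genotypes in progenitors. Foxd3 lay between 42.2 and 54.6, just above the bound, with a change of -0.08 (limma adjusted p = 0.833). Nodal lay between 68.6 and 97.3, with -0.15 (limma adjusted p = 0.565), and Lefty1 between 72.8 and 96.2, with -0.11 (limma adjusted p = 0.507). The +/+ and -/- ranges of each gene overlapped.

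In neurons only Pou3f1 passed the test, and it was lower without Hmgn1. It read 122.2, 132.9 and 121.4 in +/+ and 67.5, 98.4 and 79.4 in -/- neurons, without overlap, a change of -0.63 (SE 0.11, limma adjusted p = 0.000974). Its second probe set gave -0.20 (limma adjusted p = 0.354). Among all genes tested, 7.27% were lower and 5.95% higher. The median over the 8 genes was -0.06, against -0.02 over all genes.

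Otx2 and Sall2, both well above the bound in neurons, again had every -/- array below every +/+ array without passing. Otx2 read 1864.7, 1820.1 and 1898.1 against 1793.8, 1602.0 and 1732.7, a change of -0.12 (limma adjusted p = 0.168). Sall2 read 569.5, 606.4 and 615.7 against 540.5, 522.4 and 504.5, a change of -0.19 (limma adjusted p = 0.151). With Pou3f1 and Fgf5, 4 of the 8 genes were arranged this way, as were 18.4% of all tested genes, with 13.1% the opposite way. Fgf5 in neurons (11.7 to 16.6) was below the bound in both genotypes.

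The remaining members were near or below the bound in neurons. Nodal read 29.5, 49.0 and 37.8 in +/+ and 45.4, 49.9 and 54.3 in -/- neurons, ranges that overlapped through replicate 2 of the +/+ group. Its change was 0.38 (SE 0.14, limma adjusted p = 0.0850), and without that array it was 0.56 (adjusted p = 0.00661). With values below the bound set to it, the Nodal change was 0.28 (limma adjusted p = 0.109). A second Nodal probe set, below the bound on every neuron array, gave 0.06 (limma adjusted p = 0.936). Foxd3 read 27.7, 43.5 and 28.1 against 35.6, 41.7 and 41.3, with 0.28 (limma adjusted p = 0.307). Without replicate 2 of the +/+ neurons its change was 0.48 (adjusted p = 0.0448). Since 3 of the 6 Foxd3 arrays were below the bound, its change was 0.04 with such values set to the bound. Lefty1 (52.0 to 64.0) and Lefty2 (12.8 to 16.6) changed by 0.08 and 0.01, with limma adjusted p of 0.621 and 0.982.

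Whether the genotype effect was unequal between cell types was tested as the difference between the effects. Against ES cells, the effect in progenitors was lower in 5 of the 8 genes and higher in none: Fgf5, Pou3f1, Sall2, Lefty2 and Otx2. Of these, Fgf5 and Pou3f1 also passed as lower within progenitors. Among all genes tested the effect was lower in 10.6% and higher in 5.71%. The difference was -0.98 for Pou3f1 (SE 0.15, limma adjusted p = 0.000406) and -0.93 for Sall2 (SE 0.12, limma adjusted p = 5.82e-05). For Fgf5 it was -1.29 (SE 0.15, limma adjusted p = 2.49e-05), or -0.82 (adjusted p = 0.000113) with values below the bound set to it. Lefty2 and Otx2 were at -0.54 and -0.47. The Lefty2 progenitor values are below the bound, and with such values set to it the difference was -0.33 (limma adjusted p = 0.00322).

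From ES cells to neurons the effect was lower in 4 of the 8 genes, Pou3f1, Fgf5, Sall2 and Otx2, where 11.0% of all genes were lower and 4.70% higher. The difference for Pou3f1 was -1.14 (SE 0.15, limma adjusted p = 0.000198). The difference for Fgf5 was -0.97, but its neuron values are below the bound, and with such values set to the bound it was -0.23 (limma adjusted p = 0.181). Between progenitors and neurons no member's effect differed at a limma adjusted p under 0.05, where 5.67% of all genes were higher and 5.41% lower. At an unadjusted p under 0.05 1 of the 8 passed (Nodal, 0.53), as did 24.6% of all genes. The second Nodal probe set gave 0.11 for this difference (limma adjusted p = 0.893). These comparisons share arrays with the genotype comparisons above, so they are not separate evidence of each gene's behaviour.

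**Figure D2:**
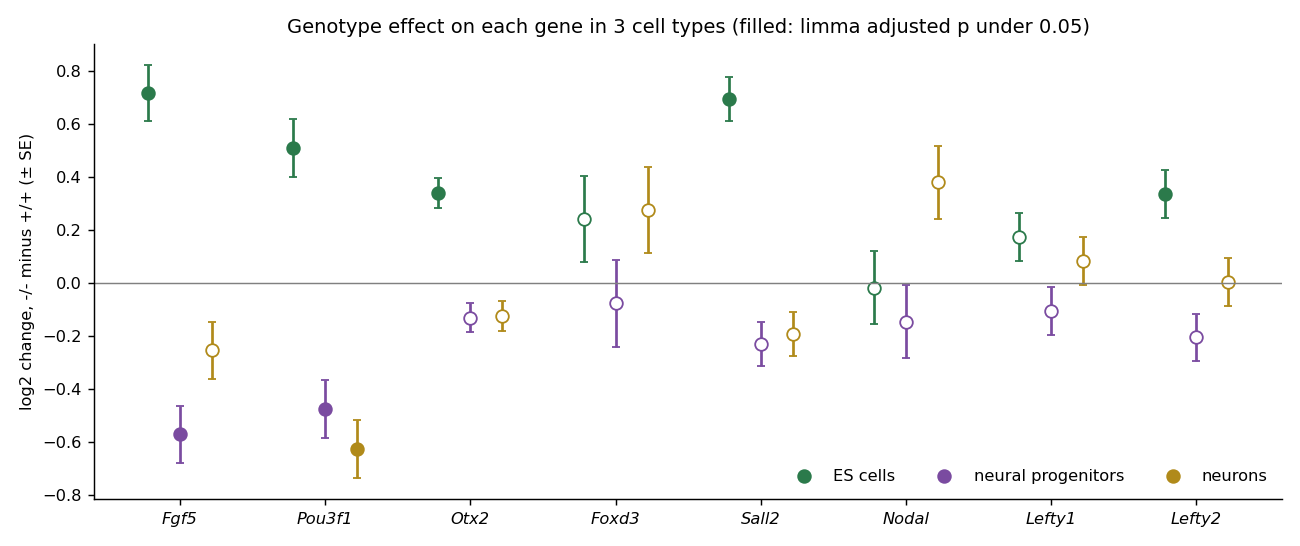
Log2 change of -/- against +/+ cells (vertical axis) with the standard error of the fit as bars, 3 arrays per group, for the 8 genes (horizontal axis) in ES cells (green), neural progenitors (purple) and neurons (ochre); filled points have a limma adjusted p under 0.05. Fgf5, Pou3f1, Otx2 and Sall2 lie above 0 in ES cells, at 0.34 to 0.72, and below 0 in both neural cell types, at -0.12 to -0.63 (Fgf5 in neurons is below the bound), while the points of Nodal and Lefty1 are open in all 3.

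Along differentiation the 8 genes went separate ways. From ES cells to progenitors in +/+ cells, Otx2, Sall2 and Fgf5 rose, and Nodal, Lefty1, Lefty2, Pou3f1 and Foxd3 fell. All 8 passed, but 41.3% of all genes were higher and 37.2% lower at this step, so a call alone sets a gene apart little. Sall2 rose 7.93-fold and Otx2 3.78-fold (log2 changes 2.99 and 1.92). Lefty1 fell most among members measured on both sides, 24.5-fold, then Nodal, 17.5-fold, and Pou3f1, 5.27-fold. The second probe sets fell less. They gave log2 changes of -1.61 for Pou3f1, against -2.40, and -2.57 for Nodal, against -4.13. The second Nodal probe set was above the bound on only 1 of 3 +/+ progenitor arrays. Lefty2 fell at least 12.5-fold to below the bound. Foxd3 fell by 1.53 on the log2 scale, and Fgf5 rose by 1.16, which is at least 1.62-fold against its ES bound.

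In -/- cells the step from ES cells to progenitors called 2 of the 8 genes higher and 5 lower, where 39.8% of all genes were higher and 38.0% lower. The rises of Otx2 and Sall2 were 2.73-fold and 4.17-fold there, and the falls of Pou3f1, Nodal and Lefty1 were 10.4-fold, 19.1-fold and 29.8-fold. On the second probe sets the log2 changes were -2.48 for Pou3f1, against -3.38, and -2.72 for Nodal, against -4.26. The second Nodal probe set was below the bound on all -/- progenitor arrays. Lefty2 fell at least 15.7-fold. Fgf5 did not pass: its -/- ES arrays (39.1 to 51.7) and -/- progenitor arrays (40.9 to 43.2) overlapped, and the change was -0.13 (SE 0.11, limma adjusted p = 0.271). Without replicate 1 of the -/- ES cells Fgf5 was called lower as well, for 6 genes lower in place of 5.

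From progenitors to neurons no member rose. In +/+ cells 7 of the 8 were lower, where 44.4% of all genes were lower and 34.6% higher, and in -/- cells 5 were lower, where 45.6% were lower and 35.2% higher. The 7 include Lefty2, which was below the bound on every array of both groups, and Foxd3, which was below it on 2 of 3 +/+ neuron arrays. With values below the bound set to it, 6 were lower in +/+ cells, without Lefty2, and 4 in -/- cells, without Fgf5. Fgf5 dropped below the bound, by at least 1.66-fold in +/+ and at least 1.10-fold in -/- cells. The log2 changes in +/+ and -/- cells, in that order, were -1.26 and -1.42 for Pou3f1, -1.12 and -0.60 for Nodal, -0.61 and -0.57 for Sall2, and -0.61 and -0.42 for Lefty1, all called. The second Pou3f1 probe set gave -0.86 and -0.89, and that of Nodal, mostly below the bound here, -0.63 and -0.53. Otx2 was level at this step, with changes of 0.02 in both genotypes (limma adjusted p = 0.787 and 0.702).

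The order of the 6 groups, on the brightest probe set of each gene, showed where neighbouring levels could be told apart. Pou3f1 ran from -/- ES cells down through +/+ ES cells, +/+ and -/- progenitors to +/+ and -/- neurons, and no neighbours in that order overlapped. On its second probe set the progenitors did overlap, at 81.7 to 96.4 in +/+ and 67.8 to 83.9 in -/- cells. Sall2 also had no overlapping neighbours, with +/+ progenitors highest and +/+ ES cells lowest. How many of all genes had no overlapping neighbours was not counted. Otx2 was highest in +/+ neurons and progenitors, which overlapped, as did -/- neurons and progenitors, and lowest in +/+ ES cells. Fgf5 was highest in +/+ progenitors, then in -/- ES cells and -/- progenitors, which overlapped. For Nodal and Foxd3 the genotypes overlapped within every cell type, and the cell types of Nodal did not. These levels are from different probe sets, so their order holds within a gene and not between genes.

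Over all 18 arrays the genes most like each member, by Pearson's r of log2 values, mostly traced the same change between cell types, since the arrays fall in 3 cell types. Nodal was most like Eras, an ES cell Ras protein (r = 0.997), Zfp979 (0.996) and Tfap2c (0.996). Lefty1 was most like Tnfsf11 (0.998), Syce2 (0.998) and Obox6 (0.998), and Lefty2 most like Mael (0.999), Psma8 (0.999) and Rbm44 (0.998). Pou3f1 was most like D11Wsu47e, Ints10 and Esrp1 (each 0.994), and Foxd3 most like Zfp33b (0.983), Nodal (0.981) and Flad1 (0.981). Otx2 was most like 1700025G04Rik (0.995), the neural progenitor factor Sox1 (0.995) and Tmem128 (0.994). Sall2 was most like the Polycomb protein Bmi1 (0.992), Med22 (0.989) and Selenop (0.989), and Fgf5 most like Numb (0.979), Acsl5 (0.973) and Eif4enif1 (0.972). Among the members, Lefty1 and Lefty2 ran together (r = 0.997), as did Nodal and Lefty1 (0.993) and Otx2 and Sall2 (0.968). Otx2 ran opposite to Lefty1 (-0.981), Nodal (-0.976) and Pou3f1 (-0.913), while Fgf5 and Otx2 had little relation (-0.18).

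Other primed and formative genes gave a mixed picture beside the 8 members. In ES cells 3 of 15 tested genes were higher in -/- cells and 1 lower, with a median change of 0.16. Pim2, a survival kinase, was higher by 0.96 (SE 0.07, limma adjusted p = 6.51e-07), Wnt8a by 0.59 and the de novo DNA methyltransferase Dnmt3b by 0.32, and the keratin Krt18 was lower at -0.29. In progenitors 0 were higher and 3 lower (Cldn6 at -0.46, Pim2 at -0.25 and Zic5 at -0.19), and in neurons 0 were higher and 6 lower, led by Krt18 at -1.05 and Fgf15 at -0.79. Pim2 thus passed in opposite directions in ES cells and progenitors. Over all genes 10.5%, 7.81% and 5.95% were higher and 4.32%, 9.19% and 7.27% lower in ES cells, progenitors and neurons. The same shares stand beside the counts of the lists that follow.

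Genes of naive and general pluripotency were called lower more than higher in -/- ES cells, with 4 of 18 lower and 1 higher and a median of -0.18. Klf4 (-0.63, SE 0.07, limma adjusted p = 8.19e-05), Klf5 (-0.50), Prdm14 (-0.46) and Tfcp2l1 (-0.45), all factors of the naive network, were lower, and Fbxo15 was higher at 0.34. Pou5f1 overlapped between genotypes in ES cells. The summed intensity of the list was 35198 to 39458 on +/+ and 34422 to 34853 on -/- ES arrays. In progenitors 9 of the 18 were lower and 1 higher, with Pou5f1 at -0.76, and in neurons 3 were lower and 1 higher. All lists were chosen with earlier results of these data known.

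The rest of the Nodal pathway was set beside the shares over all genes in ES cells, 10.5% higher and 4.32% lower. Of 11 ligand, processing and receptor genes 1 was higher and 1 lower in -/- ES cells (median -0.06): the activin receptor Acvr2a at 0.23, and Inhbb, an activin subunit, at -0.89 (SE 0.10, limma adjusted p = 4.56e-05). The co-receptor Tdgf1 (-0.04, limma adjusted p = 0.844) and the related ligand Gdf3 (0.05, limma adjusted p = 0.876) did not pass. Of 13 SMADs, cofactors and inhibitors Smad2 alone was called, at 0.24, and Foxh1 was at 0.33 (limma adjusted p = 0.0603). Of 5 tested mesendoderm genes that Nodal induces, Eomes (-0.37) and Mesp1 (-0.21) were lower and none was higher.

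In progenitors Acvr2a and Eomes were called again in the same direction, beside other genes of the pathway. Of all genes, 7.81% were higher and 9.19% lower there. Of the 11 ligand and receptor genes 2 were higher (Inhba at 0.64 and Acvr2a at 0.18) and 1 lower (Tdgf1 at -0.42). Of the 13 SMADs, cofactors and inhibitors 3 were higher (Skil, Bambi and Smad7, at 0.28 to 0.41) and 1 lower, the activin antagonist Fst, at -1.12 (SE 0.06, limma adjusted p = 4.18e-09). Of the mesendoderm genes 3 were lower, led by Eomes at -0.84. In neurons Fst (-0.93) and Acvr2b (-0.26) were lower, no gene of these lists was higher, and none of the mesendoderm genes was called. From +/+ ES cells to +/+ progenitors the log2 changes were -6.49 for Tdgf1, -4.69 for Gdf3, -2.27 for Smad7, -1.74 for Foxh1 and 4.07 for Fst.

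FGF receptors and feedback genes of the ERK pathway, through which Fgf5 signals, were called in both directions. In ES cells 3 of 12 were higher, with Fgfr2 at 0.39 and the phosphatase Dusp6 at 0.24, and 2 lower, Spry2 at -0.38 and Fgfr3 at -0.23. In progenitors 2 were higher and 1 lower, Fgfr4 at -1.32 (SE 0.10, limma adjusted p = 1.13e-07). In neurons 2 were higher and 2 lower, led by Fgfr3 at 0.52.

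**Figure D3:**
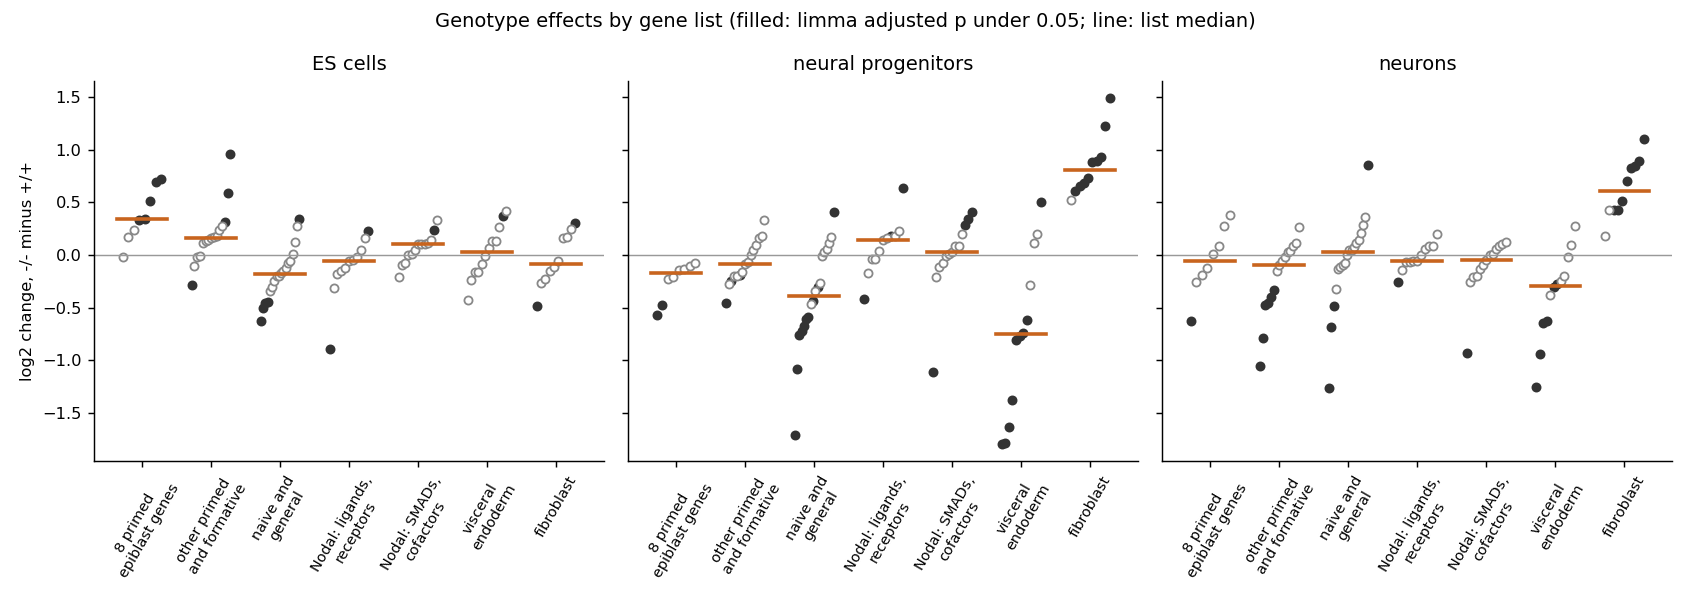
Log2 change of -/- against +/+ cells (vertical axis) of each tested gene of the 8 members and of 6 of the gene lists (horizontal axis) in ES cells, neural progenitors and neurons; filled points have a limma adjusted p under 0.05 and orange lines are list medians. The members' median is 0.34 in ES cells and -0.18 in progenitors, while that of the fibroblast list is -0.08 in ES cells and 0.81 in progenitors.

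Markers of other cells differed between the genotypes in the neural groups, where the members' values lie beside them. Genes of fibroblasts, the type of cell also used as feeders for ES cells, were higher in -/- progenitors in 9 of 10. In -/- neurons 8 of 10 were higher (medians 0.81 and 0.61). Their summed intensity was 9916 to 10590 in +/+ and 17636 to 18068 in -/- progenitors, and 16089 to 18715 against 26653 to 30948 in neurons. In ES cells it was 450.4 to 517.1 in +/+ and 441.0 to 448.1 in -/- cells, with 1 gene higher and 1 lower. Which cells expressed these genes was not tested. Visceral endoderm genes were lower in -/- progenitors in 8 of 12, with 1 higher, and summed to 9210 to 9291 against 4361 to 4606. They were lower in neurons in 6 of 12 and summed to 5452 to 8437 against 4844 to 5626. In ES cells 1 of these 12 was higher, with sums of 677.2 to 814.2 in +/+ and 721.2 to 814.5 in -/- cells. No marker was listed at 0 on any array, as the lowest value of all was 5.5.

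Of the neural lists, midbrain and forebrain patterning genes, an axis on which Otx2 acts, were higher in -/- progenitors in 7 of 10 and in -/- neurons in 6 of 10, with 1 lower there, and none was called in ES cells. Their sum was 4732 to 4967 in +/+ and 9396 to 9682 in -/- progenitors. Neural progenitor genes were higher in 2, 2 and 1 of 10 and lower in 0, 1 and 2, neural crest genes higher in 0, 2 and 1 of 8 and lower in 2, 0 and 1, and neuron genes higher in 1, 1 and 0 of 10 and lower in 2, 1 and 2, for ES cells, progenitors and neurons in that order. Over all genes 10.5%, 7.81% and 5.95% were higher and 4.32%, 9.19% and 7.27% lower. The part of these cell mixtures in the lower Pou3f1 and Fgf5 of -/- neural cells was not tested.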

How the data were processed

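Expression was measured on 18 Affymetrix arrays, 3 in each of 6 groups. The deposited values are intensities per probe set on a linear scale. The submitters' processing notes name RMA and limma as tools; versions and settings: not given in the sources used here. RMA pulls arrays toward a shared distribution, so a difference is relative to the whole array.

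Values were taken to log2(value + 1), since the deposited table is not on a log2 scale. Of 45101 probe sets, those with exactly 1 gene symbol (34945) were kept when at or above the 40th percentile of the array on at least 3 arrays (26311). Control probe sets were left out. A gene was read from its probe set with the highest mean.

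A model of 6 group means over 18 arrays (12 residual degrees of freedom) was fitted with limma 3.58.1 in R 4.3.3 and tested on simulated data. Calls are at a Benjamini-Hochberg adjusted p under 0.05 over all 14432 genes, within each of 10 comparisons. SE is from the fit, and folds are on the log2(value + 1) scale.

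The members and the 13 lists were chosen with earlier results of these data known. All members were reported, with up to 4 called genes of largest change per list and comparison, other list genes with their values, and the 3 genes most correlated with each member. Depth does not apply to arrays, whose number limits the precision.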

Additional observations from a re-analysis of the deposited data

Results flagged for a closer look

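The effect of genotype differed between cell types in 9 tests on the member genes, each a difference of log2 changes with its own limma adjusted p. Between progenitors and ES cells these were Fgf5 (-1.29), Pou3f1 (-0.98), Sall2 (-0.93), Lefty2 (-0.54, limma adjusted p = 0.00799) and Otx2 (-0.47, limma adjusted p = 0.000682). Between neurons and ES cells they were Pou3f1 (-1.14), Fgf5 (-0.97, limma adjusted p = 0.000566, but -0.23 and 0.181 with values below the background bound set to it), Sall2 (-0.89, limma adjusted p = 0.000159) and Otx2 (-0.46, limma adjusted p = 0.00114). In each of the 9 the fitted change was above 0 in ES cells. Lefty2 in progenitors and Fgf5 in neurons were below the bound in both genotypes, so no direction was measured for them there.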

How the results depend on the processing

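The 17 called changes of members, genotype effects and their differences together, were recomputed under 309 alternatives, of which 301 kept the direction and the call, 8 lost the call and 0 turned it. With only the arrays of the groups compared, 2 members were higher in ES cells in place of 5, where 1.05% of all genes were higher. In progenitors 3 were then lower in place of 2, with Sall2 added, where 11.9% of all genes were lower. Sall2 was also called lower in progenitors with log2(value + 16). With array weights, 4 were higher in ES cells in place of 5 (Lefty2 lost), 5 were lower in progenitors in place of 2, and 1 (Nodal) was higher in neurons and 1 (Nodal) in the difference between neurons and progenitors. Of all 14432 genes, array weights called 765 higher in ES cells in place of 1520. In progenitors 2028 were lower in place of 1326, and in neurons 841 were higher in place of 858. The difference between neurons and progenitors also gave 1 (Fgf5, 0.59) with values under the bound set to it. Leaving out arrays in turn gave 4 to 5 members higher in ES cells, 0 to 2 higher in neurons, and 0 to 1 higher in the differences of neurons against progenitors and against ES cells, the last 3 reached without replicate 2 of the +/+ neurons. It gave 5 to 6 lower in progenitors against ES cells and in neurons against progenitors (-/- cells), 5 to 6 lower in the difference of progenitors against ES cells (Lefty1 at -0.38 without replicate 2 of the +/+ progenitors), and 4 to 5 in that of neurons against ES cells. Same-numbered arrays shared only a number: their deviations correlated at -0.20 to 0.12, and 22 of 90 comparisons put an array closest to its own number. With the replicate block 5 members were higher in ES cells, as without it, and 1 (Nodal, 0.38) in neurons. Fgf5 in +/+ ES cells and neurons, and Lefty2 in neural cells, are limited by signal at background.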

Other observations

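Relatives of the members were called in some of the same comparisons. Of 10 tested paralogues, 2 were higher in -/- ES cells, the POU factors Pou3f3 (0.61, SE 0.14, limma adjusted p = 0.00762) and Pou3f4 (0.53, SE 0.15, limma adjusted p = 0.0265), and none was lower. Over all genes 10.5%, 7.81% and 5.95% were higher and 4.32%, 9.19% and 7.27% lower in ES cells, progenitors and neurons. The median over the 10 paralogues in ES cells was -0.12, against 0.04 over all genes. In progenitors 3 were higher, Foxd1 (0.84), Pou3f4 (0.80) and Foxd2 (0.61), and Sall4 was lower at -0.59. Pou3f4 was thus higher in -/- cells at both stages, while Pou3f1 was higher in ES cells and lower in progenitors. In neurons Foxd1 (1.48, SE 0.20, limma adjusted p = 8.47e-05), Foxd2 (0.47) and Sall1 (0.29) were higher and Sall4 (-0.68) was lower. From +/+ ES cells to +/+ progenitors the log2 changes were 6.48 for Pou3f3 and 2.92 for Pou3f4. Pou3f1 changed by -2.40 at this step, or by -1.61 on its second probe set.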
